A study of Homo sapiens with 15 samples.

Results

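The comparison described here asked what 1,25(OH)2D3 changed in the transcriptome of osimertinib-resistant lung adenocarcinoma cells that were receiving osimertinib at the same time. It used 6 of the 15 libraries, namely the 3 of H1975-OR cells given both agents (5a, 5b, and 5c) and the 3 of H1975-OR cells given osimertinib (4a, 4b, and 4c). The members were chosen by their labelled treatment alone, and libraries with the same letter were paired. H1975, an established line of human lung adenocarcinoma cells, carries mutant EGFR whose status is labelled T790M, L858R, and H1975-OR is a resistant line derived from it by long exposure to osimertinib. The same EGFR status is given for every library of the series. The osimertinib group received 500 nM of this EGFR inhibitor, and the other group received 500 nM osimertinib together with 100 nM 1,25(OH)2D3, the active hormone made from vitamin D3. Both groups came from one resistant line that is maintained in 500 nM osimertinib, and both were treated in medium with charcoal stripped serum. Treatment for RNA work lasted 96 h, with agents applied at 0, 48, and 92 h. The study's methods state biological triplicates for its cell culture experiments in general and name 3 separate passages for the vehicle and 1,25(OH)2D3 groups. All replicates come from 1 resistant line, so the p-values measure the spread within this line. The remaining libraries are vehicle-treated H1975 (1a to 1c), vehicle-treated H1975-OR (2a to 2c), and H1975-OR given 100 nM 1,25(OH)2D3 alone (3a to 3c).

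As background, 1,25(OH)2D3 binds the vitamin D receptor (VDR), which pairs with a retinoid X receptor and activates target genes. CYP24A1, the 24-hydroxylase that degrades the hormone, is the classic target and forms a negative feedback loop. In epithelial tumor cells the hormone is also known for raising E-cadherin and for slowing the cell cycle. Osimertinib blocks mutant EGFR, and resistant cells often show a mesenchymal state in which E-cadherin is low.

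The deposited values are estimated counts per gene, and they summed to between 4974785 and 5104324 with osimertinib and between 4378030 and 4941496 with both agents. Levels are given as CPM, a gene's count brought to a common library total, after TMM scaling, which corrects for a few genes taking a large share of a library. A gene with 3 counts would have a level of between 0.588 and 0.685 CPM in these libraries, and this floor covers counting error only. The line's identity was checked against markers. KRT18 lay between 1878 and 2921 CPM in the 6 libraries, NKX2-1 between 33.1 and 99.0 CPM, and the lung markers NAPSA and SFTPB did not exceed 1.90 CPM. The summed level of 6 leukocyte markers was 14.5 to 27.4 CPM with osimertinib and 9.67 to 24.1 CPM with both agents. CD68 was the largest of them in each library, at 4.72 to 23.4 CPM, while CD3E had 0 counts in all 6 libraries. The summed level of 4 endothelial markers did not exceed 17.3 CPM. The summed level of 6 fibroblast markers was 55.9 to 138 CPM with osimertinib and 143 to 300 CPM with both agents, while COL1A2 and DCN stayed at or under 1.71 CPM. In 4a the list's largest member was PDGFRB with 20.9 CPM, and in 4b and 4c it was COL3A1 with 77.2 and 53.6 CPM.

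Adding 1,25(OH)2D3 to osimertinib changed a small number of genes. The edgeR quasi-likelihood test, adjusted by the Benjamini-Hochberg method at 0.05, called 23 rising and 10 falling genes among 12503, which is 0.264% of the genes tested, 0.184% upward and 0.08% downward. The rising genes included the hormone-degrading enzyme CYP24A1, the adhesion gene CDH1, the matrix genes COL1A1 and LOX, and the growth factor carrier IGFBP3, with folds between 1.48 (ABL1) and 139 (CYP24A1). The falling genes were 6 MTRNR2L copies of a mitochondrial ribosomal RNA gene, the creatine kinase gene CKB, the mitotic genes UBE2C and NUSAP1, and the histone gene HIST2H2BE. At an unadjusted edgeR p under 0.05, 507 genes were higher and 543 lower. The libraries of both groups did not overlap for 1003 genes, 8.02% of those tested, with 449 higher and 554 lower. The number called depended on the pairing and on single libraries: 12 genes were called without the replicate block, 9 (4 higher and 5 lower) from the 6 libraries alone with the block, and 148 (94 higher and 54 lower) by DESeq2. Leaving out 1 library gave 11 genes without 4a or 4c, 16 without 4b, 15 without 5b, and 18 without 5c.

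**Figure D1:**
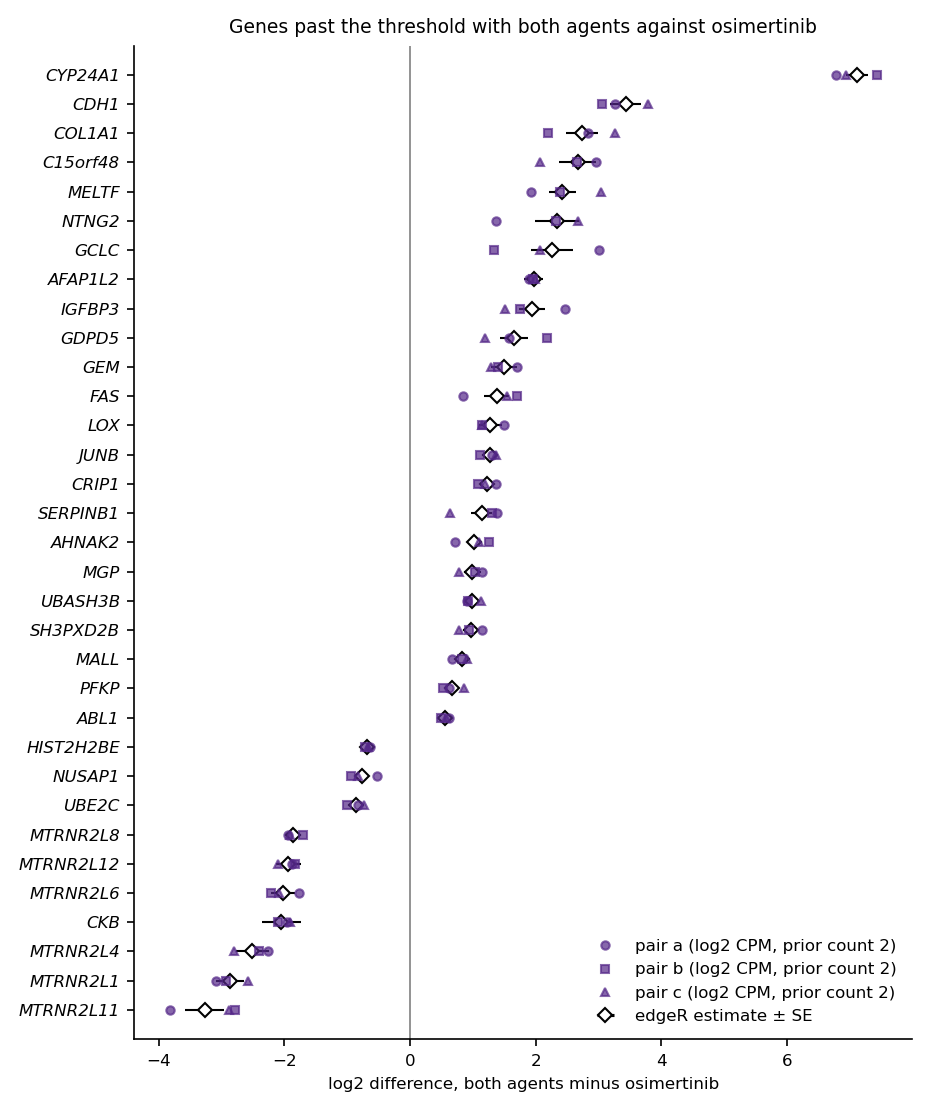
Log2 difference (x axis) of the 33 called genes (y axis), as the edgeR estimate with its SE (diamonds) and as the value of each letter pair (circle a, square b, triangle c). All 3 pairs lie on one side of 0 for every gene shown, from CYP24A1 at 7.12 to MTRNR2L11 at -3.27.

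CYP24A1 (chr20:54143538-54173986 in GRCh38, protein-coding) showed the largest rise among the called genes. Its level was 9.10, 3.44, and 6.86 CPM in 4a, 4b, and 4c and 1053, 663, and 898 CPM in 5a, 5b, and 5c. The lowest library with both agents was thus far above the highest with osimertinib. The means were 6.47 ± 2.85 and 871 ± 196 CPM (SD, n = 3 each), a 139-fold difference (log2 7.12, SE 0.17, edgeR adjusted p = 8.24e-07). It was the one gene that stayed under the threshold in all 19 alternative analyses, with adjusted p between 5.86e-252 and 0.00321.

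The receptor and its partners did not pass the test. VDR itself was at 26.5, 17.6, and 18.0 CPM with osimertinib and 28.6, 20.5, and 26.2 CPM with both agents. These ranges overlapped (log2 difference 0.28, SE 0.19, edgeR adjusted p = 0.767). Of the 19 listed genes for the receptor, its partners, and vitamin D enzymes, 14 were tested, and CYP24A1 alone was called. RXRA, a retinoid X receptor, was at 23.3, 7.28, and 25.8 CPM with osimertinib and 3.77, 6.45, and 5.10 CPM with both agents. Its libraries did not overlap, but the difference did not pass the test (log2 -1.86, SE 0.54, edgeR adjusted p = 0.377). CYP27B1, the enzyme that makes the hormone, was too low to be tested. On a scale common to all 15 libraries it was at 1.14, 1.02, and 0.409 CPM with osimertinib and 0.602, 0, and 0.236 CPM with both agents.

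Among 43 genes known to respond to 1,25(OH)2D3 in other cells, 33 were tested. CYP24A1, CDH1, IGFBP3, and SERPINB1 rose, and 0 fell. The median log2 difference of the 33 was 0.58, beside 0.001 for all genes tested, and the libraries of 10 did not overlap in the upward direction, against 3.59% of all genes. The list's median was 0.84, 0.40, and 0.60 in pairs a, b, and c, and it was 0.398 without 5a and 0.901 without 5c. IGFBP3, which binds insulin-like growth factors, was at 58.4, 40.4, and 28.2 CPM with osimertinib. With both agents it was at 324, 137, and 81.8 CPM, above each osimertinib library (log2 difference 1.95, SE 0.21, edgeR adjusted p = 0.00843). SERPINB1, an inhibitor of serine proteases, had means of 63.6 ± 13.5 and 145 ± 60.7 CPM (SD, n = 3 each, log2 difference 1.14, SE 0.17, edgeR adjusted p = 0.0448). Its call held in 8 of 19 alternatives. SEMA3B, a secreted semaphorin, did not pass the test although its libraries did not overlap, with 27.5 to 33.0 CPM and 59.7 to 69.7 CPM (log2 1.10, SE 0.21, edgeR adjusted p = 0.133). The same held for NINJ1, a cell surface protein, with 80.6 to 99.6 and 131 to 137 CPM (log2 0.55, SE 0.10, edgeR adjusted p = 0.0948). CAMP, the cathelicidin gene and a classic target in immune and epithelial cells, stayed at or under 2.32 CPM, and in part under the floor.

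**Figure D2:**
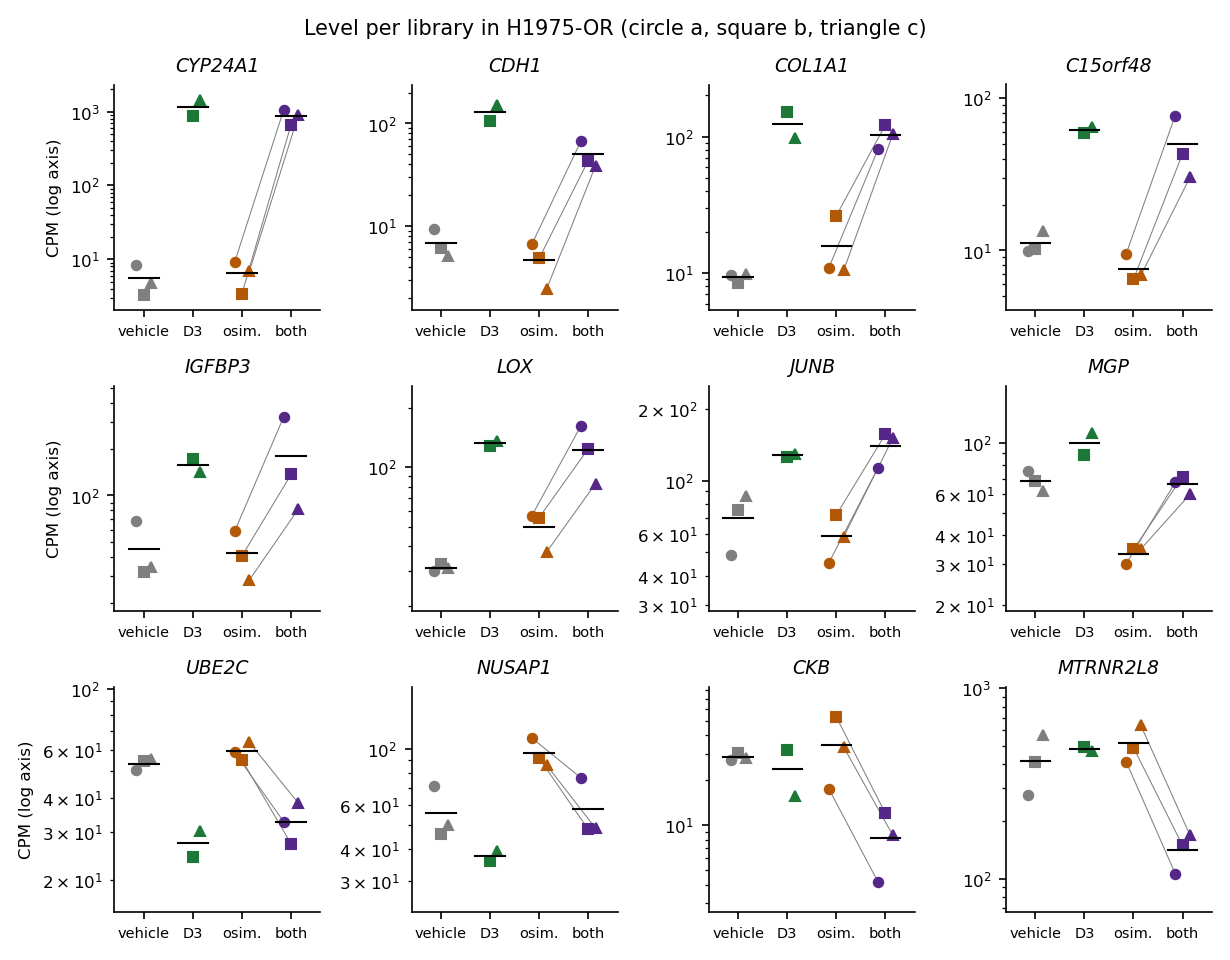
Level in CPM (log axis) of 12 genes in H1975-OR libraries given vehicle, 1,25(OH)2D3 (D3), osimertinib (osim.), or both agents, with 1 point per library, bars for group means, and grey lines joining the letter pairs. The 12 were taken from called genes whose osimertinib and both-agent libraries do not overlap. The called genes GDPD5, MALL, ABL1, and GCLC, which overlap, are not shown.

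Among epithelial genes, CDH1, which encodes E-cadherin (chr16:68737292-68835537, GRCh38), rose. Its level was 6.64, 4.85, and 2.42 CPM with osimertinib and 67.2, 43.5, and 38.9 CPM with both agents. Each pair rose, and the groups were widely apart (log2 difference 3.43, SE 0.24, a 10.8-fold difference, edgeR adjusted p = 0.00181). It stayed under the threshold in 17 of 19 alternatives. On a scale common to all 15 libraries, CDH1 with both agents lay between 39.6 and 68.0 CPM and in parental H1975 between 108 and 384 CPM, a difference that was not tested. CDH1 was the only gene called by edgeR among 38 tested epithelial junction and identity genes. At an unadjusted edgeR p under 0.05, 8 were higher and 1 lower, where 507 of all 12503 genes were higher and 543 lower. DESeq2 called 3 higher, where it called 94 of all genes higher. The list's median log2 difference was 0.04. CLDN4, a tight junction claudin, was at 46.6, 60.5, and 44.8 CPM with osimertinib and 99.9, 86.2, and 105 CPM with both agents. These libraries did not overlap, but the gene missed the threshold (log2 0.96, SE 0.18, edgeR adjusted p = 0.104). The keratins KRT18 (log2 -0.29, SE 0.09, edgeR adjusted p = 0.414) and KRT7 (log2 0.53, SE 0.15, edgeR adjusted p = 0.341) did not pass either.

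Matrix genes rose beside CDH1. COL1A1, the alpha 1 chain of type I collagen (chr17:50184101-50201631, GRCh38), was at 11, 26.3, and 10.5 CPM with osimertinib and 80.7, 122, and 104 CPM with both agents. The groups did not overlap (log2 2.74, SE 0.26, edgeR adjusted p = 0.00501), but the call was lost in 6 of 19 alternatives. Its partner chain COL1A2 did not exceed 1.71 CPM in the 6 libraries. LOX, the lysyl oxidase that crosslinks collagen, was at 56.9, 55.8, and 37.3 CPM and 162, 124, and 82.9 CPM (log2 1.28, SE 0.19, edgeR adjusted p = 0.0448). Its call was lost in 11 of 19 alternatives. FN1, fibronectin, had 58.9 to 86.6 CPM with osimertinib and 118 to 221 CPM with both agents without passing the test (log2 0.95, SE 0.17, edgeR adjusted p = 0.0948). Of 37 tested mesenchymal and matrix genes, COL1A1 and LOX rose by edgeR, 0 fell, and the median log2 difference was 0.10. DESeq2 called 4 higher and 0 lower, where it called 94 of all 12503 genes higher and 54 lower. VIM, the mesenchymal intermediate filament gene vimentin, was at 2905, 3302, and 3861 CPM with osimertinib and 2879, 3343, and 4010.2 CPM with both agents. The values of each pair were nearly equal (log2 0.02, SE 0.07, edgeR adjusted p = 0.962). MMP2, a matrix metalloproteinase, was low, at 0.758, 2.83, and 6.45 CPM with osimertinib and 0, 1.15, and 0.463 CPM with both agents (edgeR adjusted p = 0.287).

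Several further rising genes act in signaling and at the cell surface. JUNB, a subunit of the AP-1 transcription factor, was at 45.3, 71.8, and 58.1 CPM with osimertinib and 113, 156, and 150 CPM with both agents (log2 1.27, SE 0.12, edgeR adjusted p = 0.00483). The groups did not overlap, and the rise was of like size in each pair. FAS, a death receptor, was at 12.9, 11.7, and 16.9 CPM and 23.4, 39.2, and 50.0 CPM (log2 1.38, SE 0.20, edgeR adjusted p = 0.0448). AFAP1L2, an adaptor of the actin filament associated protein family, rose to 3.93 times its level with osimertinib (SE 0.15 on the log2 scale, edgeR adjusted p = 0.00227), from 13.1, 17.4, and 19.2 CPM to 49.8, 68.9, and 77.1 CPM. The LIM domain gene CRIP1 showed little spread, with 28.1, 30.5, and 29.2 CPM and 73.2, 65.4, and 67.4 CPM (log2 1.23, SE 0.11, edgeR adjusted p = 0.00398). C15orf48 (log2 2.67), the melanotransferrin gene MELTF (2.43), the netrin-G2 gene NTNG2 (2.34), and the GTP-binding protein gene GEM (1.49) completed the larger rises without overlap. MGP, matrix Gla protein, an inhibitor of calcification, was at 30.1, 34.8, and 34.9 CPM with osimertinib and 67.4, 71.4, and 60.0 CPM with both agents (log2 0.99, SE 0.14, edgeR adjusted p = 0.0429). AHNAK2, UBASH3B, SH3PXD2B, and PFKP rose by between 0.67 and 1.02 on the log2 scale without overlap. For GDPD5, MALL, ABL1, and GCLC the ranges of the groups overlapped although every pair rose. ABL1, GDPD5, MALL, and SH3PXD2B were called in 5 of 19 alternatives each, GEM in 6, FAS and PFKP in 7 each, and MGP and NTNG2 in 8 each.

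GCLC encodes the catalytic subunit of the enzyme that starts glutathione synthesis and was the 1 gene called by edgeR of 21 tested NRF2 target genes, of which DESeq2 called 4, all higher. It was at 3.79, 3.03, and 8.67 CPM with osimertinib and 33.5, 8.30, and 37.8 CPM with both agents, with 5b below 4c (log2 2.26, SE 0.33, edgeR adjusted p = 0.0448). The call held in 6 of 19 alternatives. The median log2 difference of the list was 0.07. At an unadjusted edgeR p under 0.05, 8 members were higher and 0 lower, where 507 of all 12503 genes were higher and 543 lower. DESeq2 called 94 of all genes higher. The libraries of 6 list members did not overlap in the upward direction, where 3.59% of all genes did so. Outside the calls, AKR1C3, an aldo-keto reductase, had 38.7 to 53.1 CPM and 79.5 to 93.0 CPM (log2 0.84, edgeR adjusted p = 0.089) with no overlap between the groups.

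Cell cycle genes lay mostly below 0, and 2 mitotic genes fell. UBE2C, the ubiquitin-conjugating enzyme of the anaphase-promoting complex, was at 58.6, 55.0, and 63.7 CPM with osimertinib and 32.7, 27.2, and 38.2 CPM with both agents (log2 -0.86, SE 0.12, edgeR adjusted p = 0.0429). NUSAP1, a spindle protein gene, was at 111, 91.8, and 86.3 CPM and 76.7, 47.9, and 48.4 CPM (log2 -0.77, SE 0.11, edgeR adjusted p = 0.0429). Neither gene's libraries overlapped between the groups, and each call held in 6 of 19 alternatives. Of 53 tested G2/M phase genes, UBE2C and NUSAP1 fell, 0 rose, 48 had a log2 difference below 0, and the libraries of 13 did not overlap in the downward direction, where 4.43% of all genes did so. The median of the G2/M list was -0.40 and lay at -0.34, -0.55, and -0.29 in pairs a, b, and c. Of 43 tested S phase genes, 36 lay below 0 with a median of -0.27, and edgeR and DESeq2 each called 0. At an unadjusted edgeR p under 0.05, 5 were lower and 0 higher, where 543 of all 12503 genes were lower and 507 higher. G1 control genes had a median of -0.13 with 22 of 30 below 0, and both tools called 0 (edgeR unadjusted, 2 lower and 0 higher). CCND1, cyclin D1, was at 262, 490, and 554 CPM with osimertinib and 260, 435, and 532 CPM with both agents (edgeR adjusted p = 0.941).

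A few listed genes had single libraries far from the others. RRM1, a ribonucleotide reductase subunit, was listed at 160, 0, and 104 CPM with osimertinib and 174, 50.9, and 135 CPM with both agents. TPX2, a spindle assembly factor gene, was at 116 CPM in 4a and at or under 10.4 CPM in the other 5 libraries. CALM2, a calmodulin gene, was at 6.25 CPM in 5c and between 181 and 327 CPM in the other 5. Whether the estimation assigned their reads to other transcripts was not tested.

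Histone genes, a family singled out after their values were seen and therefore given with no test of the family, also lay low. There were 71 among the deposited genes and 65 were tested, and 62 of these had a log2 difference below 0, with a median of -0.55. HIST2H2BE was the only one called by edgeR. DESeq2 called 13 lower, where it called 54 of all 12503 genes lower. The libraries of 27 histone genes did not overlap in the downward direction, against 4.43% of all genes. HIST2H2BE was at 89.9, 108, and 106 CPM with osimertinib and 57.5, 65.2, and 66.2 CPM with both agents (log2 -0.68, SE 0.10, edgeR adjusted p = 0.0448). Its call held in 5 of 19 alternatives. CKB, brain-type creatine kinase, which buffers cellular ATP, fell from 17.4, 53.0, and 33.3 CPM to 4.16, 12, and 8.57 CPM (log2 -2.05, SE 0.31, edgeR adjusted p = 0.0483). The highest library with both agents stayed below the lowest with osimertinib, but the call held in 5 of 19 alternatives.

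Cholesterol and fatty acid synthesis genes leaned downward with no call. Of 31 tested, 25 lay below 0, the median was -0.27, and the medians of pairs a, b, and c were -0.24, -0.26, and -0.32. edgeR called 0 of them. At an unadjusted edgeR p under 0.05, 7 were lower and 0 higher, where 543 of all 12503 genes were lower and 507 higher. DESeq2 called 3 lower, where it called 54 of all genes lower. The libraries of 6 members did not overlap in the downward direction, against 4.43% of all genes. SREBF1, which encodes the transcription factor that activates fatty acid synthesis genes, was at 83.6, 77.3, and 107 CPM with osimertinib and 36.5, 40.1, and 28.7 CPM with both agents (log2 -1.32, SE 0.24, edgeR adjusted p = 0.1). SCD, stearoyl-CoA desaturase, was at 856, 873, and 1327 CPM and 681, 380, and 580 CPM (log2 -0.88, SE 0.20, edgeR adjusted p = 0.204). FADS2, a fatty acid desaturase, was at 23.1 to 38.3 CPM and 11.9 to 15.3 CPM (log2 -1.08, SE 0.21, edgeR adjusted p = 0.133). The groups of these 3 genes did not overlap, and none passed the test.

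Among the called genes, the 3 largest falls were those of MTRNR2L11 (log2 -3.27), MTRNR2L1, and MTRNR2L4 (log2 -2.51). These are nuclear copies of the mitochondrial 16S ribosomal RNA gene MT-RNR2 that hold a short open reading frame for a humanin-like peptide. RefSeq annotates the copies below as pseudogenes. The stretch of MT-RNR2 with this reading frame (24 codons and a stop) and its best match in each of the 6 called copies are shown because they are close to the same sequence. The reference genome is GRCh38, and capitals mark bases that differ from MT-RNR2.
MT-RNR2 (chrM:2633-2707, plus strand): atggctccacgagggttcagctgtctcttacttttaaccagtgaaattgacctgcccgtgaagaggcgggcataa
MTRNR2L1 (chr17:22524062-22524136, plus strand): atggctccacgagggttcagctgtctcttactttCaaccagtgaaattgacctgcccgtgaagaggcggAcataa
MTRNR2L8 (chr11:10508152-10508226, minus strand): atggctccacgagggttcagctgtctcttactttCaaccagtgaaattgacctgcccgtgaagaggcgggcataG
MTRNR2L12 (chr3:96617199-96617273, minus strand): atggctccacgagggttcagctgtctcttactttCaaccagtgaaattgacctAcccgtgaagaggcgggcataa
MTRNR2L6 (chr7:142667231-142667305, plus strand): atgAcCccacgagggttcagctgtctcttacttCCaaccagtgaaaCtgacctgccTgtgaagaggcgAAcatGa
MTRNR2L11 (chr1:237944252-237944326, minus strand): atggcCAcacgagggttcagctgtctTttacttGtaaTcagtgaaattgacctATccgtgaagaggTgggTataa
MTRNR2L4 (chr16:3371828-3371902, minus strand): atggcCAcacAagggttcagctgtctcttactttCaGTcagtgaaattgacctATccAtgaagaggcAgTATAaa
MTRNR2L1, MTRNR2L8, and MTRNR2L12 differed from MT-RNR2 at 2 of these 75 bases, MTRNR2L6 and MTRNR2L11 at 9, and MTRNR2L4 at 14. Over the whole copies, 51.4% of the 31-base words of MTRNR2L12, 36.9% of those of MTRNR2L8, and 1.2% of those of MTRNR2L4 also occur in MT-RNR2 or in another of the 6 copies. Words of MT-RNR2 itself made up 33.9% for MTRNR2L12, 22.1% for MTRNR2L8, 7.2% for MTRNR2L6, 5.6% for MTRNR2L1, 1.1% for MTRNR2L11, and 0.4% for MTRNR2L4. Counts of single copies are therefore uncertain, to an extent that differs between the copies. MT-RNR2 is a ribosomal RNA, and the sources used here do not state whether the library kit removed mitochondrial ribosomal RNA. Whether reads of MT-RNR2 were counted under these names was not tested.

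All 7 tested MTRNR2L genes of 11 deposited were lower with both agents with no overlap between libraries, against 4.43% of all genes. Of the 7, 6 passed the test, where 0.08% of all genes were called lower. The family was singled out after its values were seen, so these counts are no test of it. MTRNR2L12, the most abundant, was at 1889, 2169.9, and 2765 CPM with osimertinib and 514, 609, and 643 CPM with both agents (log2 -1.94, SE 0.20, edgeR adjusted p = 0.00769). MTRNR2L8 was at 412, 488, and 638 CPM and 106, 150, and 170 CPM (log2 -1.86, SE 0.12, edgeR adjusted p = 0.00168). MTRNR2L1 was at 448, 474, and 630 CPM and 52.2, 62.2, and 106 CPM (log2 -2.87, SE 0.22, edgeR adjusted p = 0.00227). The groups of these 3 genes were far apart, and both agents gave the lower value in every pair. The summed share of the family was between 0.305% and 0.435% of the counts with osimertinib and between 0.0732% and 0.0963% with both agents. On the scale of 15 libraries the summed level with both agents (725.5 to 1002 CPM) lay below that of every other library of the series, of which 3a came nearest with 1079 CPM. The 13 protein-coding mitochondrial transcripts took 0.672% to 1.04% of the counts with osimertinib and 0.424% to 1.04% with both agents, and their median log2 difference was -0.06 with 0 called by edgeR, 2 lower at an unadjusted edgeR p under 0.05, and 0 called by DESeq2. How far ribosomal RNA removal differed between the groups was not tested. Between 1 and 7 members of the family were called in the 19 alternatives, with 1 from the 6 libraries alone without the block, 1 without both libraries of letter b, 2 without both of letter c, and 3 without 4c.

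**Figure D3:**
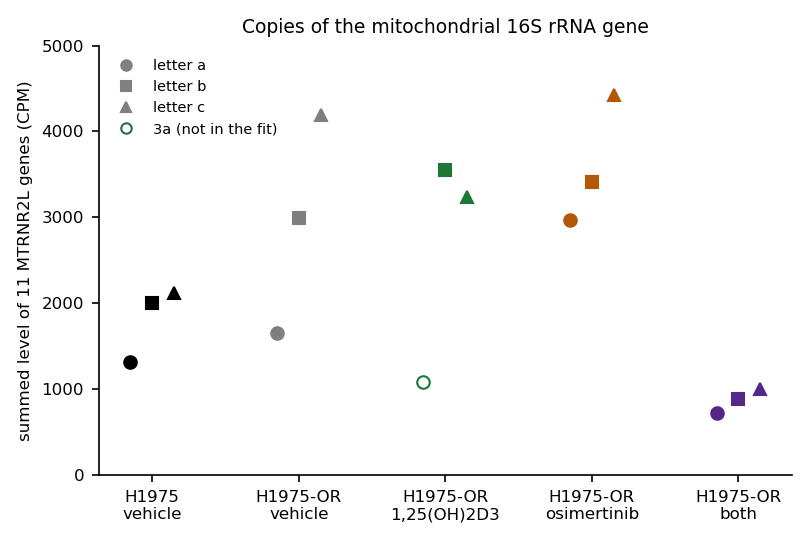
Summed level of 11 MTRNR2L genes (y axis, CPM) in each of the 15 libraries by group and treatment (x axis), with 1 point per library. The 3 libraries with both agents lie at 725.5 to 1002 CPM, below the osimertinib libraries at 2964 to 4423 CPM, and 3a (open circle) lies at 1079 CPM.

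**Figure D4:**
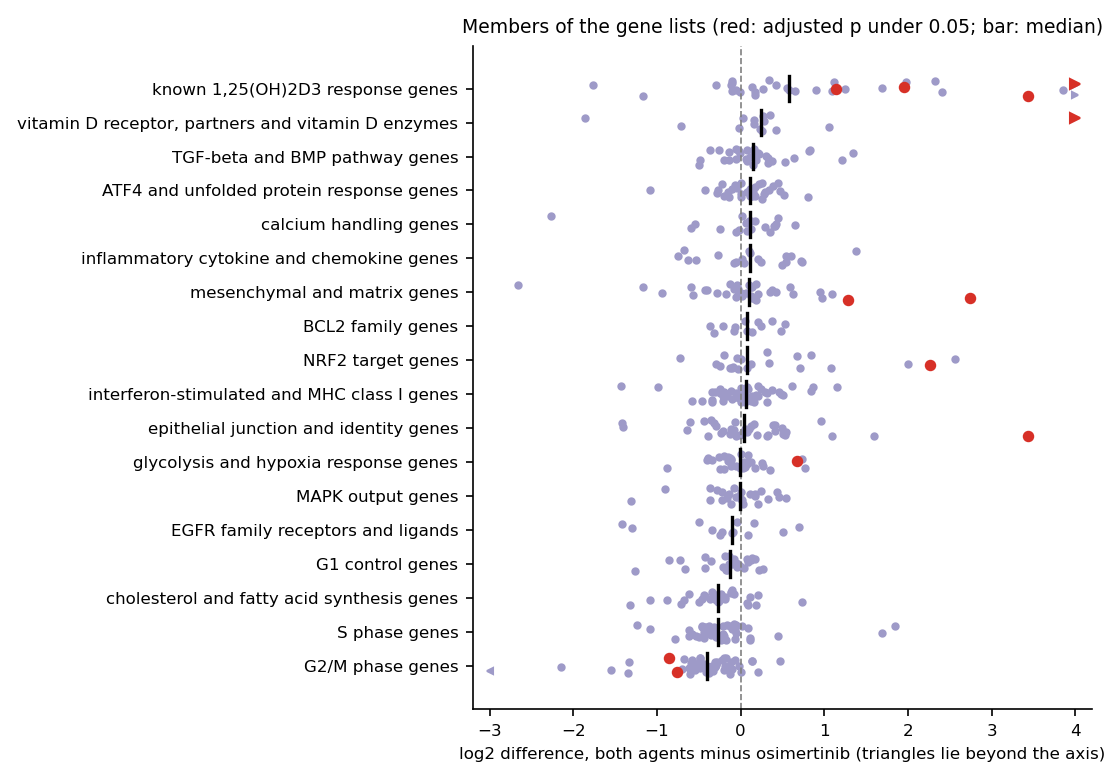
Log2 difference between both agents and osimertinib (x axis) for the tested members of 18 gene lists (y axis), with bars for medians, red points for called genes, and a dashed line for the median of all genes. The list medians run from -0.40 (G2/M phase genes) to 0.58 (known 1,25(OH)2D3 response genes), and triangles stand for the members beyond the axis.

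The other lists had medians between -0.11 and 0.15, beside 0.001 for all genes tested. EGFR, the drug target, was at 107, 145, and 110 CPM with osimertinib and 178, 203, and 128 CPM with both agents, ranges that overlapped (log2 0.50, SE 0.19, edgeR adjusted p = 0.528). The 13 tested EGFR family receptors and ligands had a median log2 difference of -0.11, and the 26 tested genes expressed downstream of MAPK signaling had one of -0.005. Medians were 0.08 for 13 BCL2 family genes, 0.15 for 33 TGF-beta and BMP pathway genes, 0.06 for 50 interferon-stimulated and MHC class I genes, 0.11 for 20 inflammatory cytokine and chemokine genes, 0.11 for 33 ATF4 and unfolded protein response genes, and 0.11 for 20 calcium handling genes. edgeR called 0 genes in each of these 8 lists, with between 0 and 5 members higher and between 0 and 1 lower at an unadjusted p under 0.05. The TGF-beta and interferon lists each had 5 higher and 1 lower, where 507 of all 12503 genes were higher and 543 lower. Libraries did not overlap in the upward direction for 4 of 33 TGF-beta genes and 6 of 50 interferon genes, against 3.59% of all genes. In the downward direction this held for 1 and 0 of them. DESeq2 called 1 higher in each of the TGF-beta, interferon, and inflammatory lists. NFKBIA, the inhibitor of NF-kappa-B signaling, was at 30.5, 31.3, and 51.0 CPM and 51.2, 112, and 131 CPM without passing the test (log2 1.38, SE 0.33, edgeR adjusted p = 0.228). Of 32 tested glycolysis and hypoxia response genes, PFKP, a phosphofructokinase, rose from 179, 156, and 173 CPM to 276, 225, and 313 CPM (log2 0.67, SE 0.08, edgeR adjusted p = 0.027), with a list median of -0.004.

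The effect of 1,25(OH)2D3 can be set beside its effect without osimertinib, from 5 other libraries (2a, 2b, and 2c against 3b and 3c). No library is shared between these comparisons, although they were fitted together. In H1975-OR without osimertinib 41 genes were higher and 7 lower than with vehicle, 0.384% of the genes tested, 0.328% upward and 0.056% downward. This number also rested on single libraries, with 17 genes called without 2b, 10 without 2c, 10 without 3b, and 7 without 3c. In both comparisons 18 genes were called, all in the same direction, and they made up 54.5% of the 33 and 37.5% of the 48. All 23 genes that rose with both agents had a positive log2 difference without osimertinib, and 5 of the 10 that fell had a negative one. When the comparisons were fitted separately, 9 genes were called in the 5 libraries without osimertinib, and all 9 had the same direction in the 6 osimertinib libraries, with 3 of them called there and 9 of 9 under 0.05 unadjusted. Library 3a entered neither fit, and the study left it out because its expression pattern deviated strongly. Its protein-coding mitochondrial transcripts took 1.54% of the counts, against 0.746% to 0.774% in the vehicle libraries of H1975-OR. In 3a, 22 of the 23 rising genes lay above every vehicle library of H1975-OR, with MALL as the exception. Of the 10 falling genes, 9 lay below every vehicle library, among them the 6 called MTRNR2L copies. The share of all tested genes outside the vehicle range in 3a was not computed, so these counts are not a replication.

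The difference between these effects was tested directly. edgeR called 0 genes (283 higher and 313 lower at an unadjusted p under 0.05), and the smallest adjusted p was 0.0528, for MTRNR2L8. Other analyses gave between 0 and 21 genes, with 21 from DESeq2 and 6, all of them MTRNR2L copies, from the fit of 14 libraries. For MTRNR2L8 the log2 difference was -1.86 with osimertinib and 0.06 (SE 0.14) without it (adjusted p of the difference 0.0528). The median of the 7 tested copies was -2.37 with osimertinib and 0.06 without, where 3a is left out. With 3a kept in, the medians were -2.42 and -0.22, and the smallest adjusted p of the difference over the copies was 0.348 (edgeR). The MTRNR2L copies of 3a summed to 1079 CPM and those of 2a, 2b, and 2c to 1650, 2989, and 4191 CPM on the 15-library scale. The difference was below 0 for each of the 7 copies in both fits and was not called in either. CYP24A1 rose by 7.12 on the log2 scale with osimertinib and by 7.97 without, a difference of -0.85 (SE 0.24, edgeR adjusted p = 0.97). CDH1 rose by 3.43 with osimertinib and by 4.52 without (difference -1.09, SE 0.35, edgeR adjusted p = 0.97). LOX had 1.28 and 2.20 (difference -0.92, SE 0.28, edgeR adjusted p = 0.97), and MALL had 0.84 and 1.68 (difference -0.84, SE 0.16, edgeR adjusted p = 0.84). JUNB leaned the other way, with 1.27 and 0.71 (difference 0.55, SE 0.17, edgeR adjusted p = 0.97). For C15orf48, AHNAK2, UBASH3B, and PFKP the estimates differed by at most 0.08 on the log2 scale, with SEs between 0.13 and 0.42. No difference between the effects passed the adjustment in the primary fit, which does not show that the effects were equal.

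**Figure D5:**
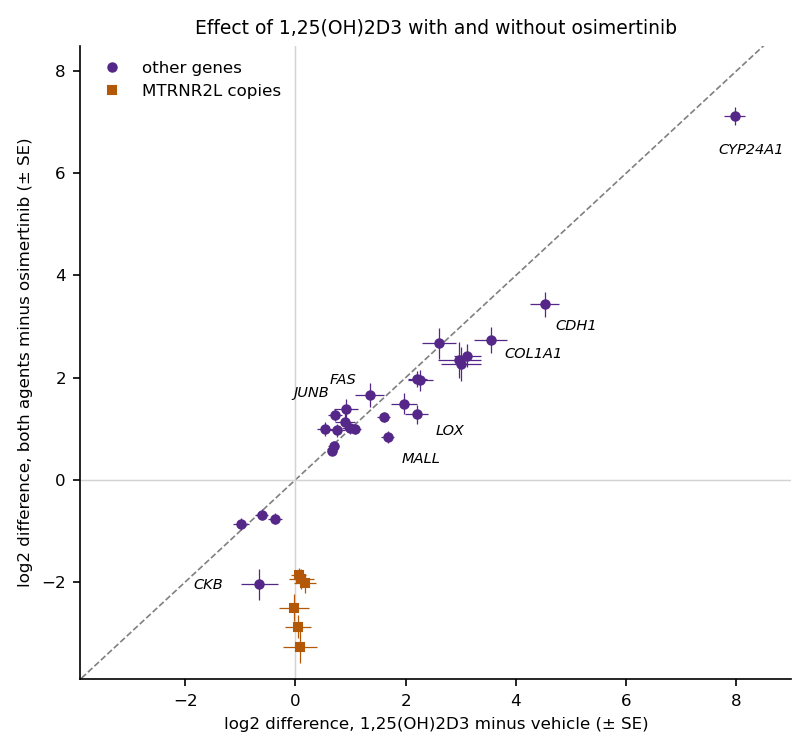
Log2 difference of 1,25(OH)2D3 against vehicle (x axis) and of both agents against osimertinib (y axis) for the 33 genes called in the latter, with 3a left out and SEs as bars and a dashed line of equal effects. Rising genes lie above 0 on both axes, from ABL1 (0.67 and 0.56) to CYP24A1 (7.97 and 7.12). More of them lie below the line, such as CDH1 (4.52 and 3.43), than above it, such as JUNB (0.71 and 1.27). None of these differences was called in the primary fit. The 6 MTRNR2L copies (squares) lie near 0 on the x axis and between -3.27 and -1.86 on the y axis.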

How the data were processed

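The authors prepared stranded total RNA libraries with ribosomal RNA removal, sequenced paired-end reads, assigned them to hg38 transcripts with kallisto, and summed transcripts to genes with tximport. What the authors deposited is the resulting table of estimated counts, 19612 gene symbols by library, left without any scaling. The submitters' processing notes name kallisto 0.43.0, STAR 2.5.2b, and CASAVA 1.8.2, and the transcript annotation and tximport settings are not given in the sources used here.

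After rounding to whole numbers, the filterByExpr function of edgeR 4.0.16 (R 4.3.3) removed low genes (minimum count 10 in the size of a group, minimum total 15). TMM factors set the library scale. The two-sided quasi-likelihood test was adjusted over all tested genes by Benjamini-Hochberg, with calls at an adjusted p under 0.05. One fit held the 11 H1975-OR libraries other than 3a, which the study also left out, with the replicate letter as block (5 residual degrees of freedom). The letters were taken as pairs because the comparison was set with the replicate letter as block. Deviations from the group means correlated at 0.19 to 0.394 between same-lettered osimertinib and both-agent libraries and at -0.259 to 0.081 between others. The deviations of 3 libraries from their mean sum to 0, so positive values for same letters push the others down. The second range is therefore no separate support for the pairing. Alternatives were other scalings, DESeq2 1.42.0, other filters, no block, other sets of libraries, and each library or letter left out.

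Named genes were those the study names for vitamin D, epithelial, or mesenchymal states or as drug target, up to 12 rises and 12 falls (adjusted p under 0.05, mean of at least 10 CPM in the higher group, no overlap), and called or abundant members of 18 lists, of which those not described singly enter the list medians. Other called genes, FN1, SEMA3B, NINJ1, SREBF1, FADS2, AKR1C3, RXRA, TPX2, and the MTRNR2L and histone families were named after their values were seen. Some genes are not reported here. The comparison, its lists, and its tests were chosen with earlier results of these data known. S and G2/M lists came from Seurat 5.3.0. Gene positions and aliases came from RefSeq on GRCh38.p14, and all 79 rule-named and called genes had a position. In simulated counts (12305 genes, 200 of them shifted by a log2 value of 2), the test for both agents against osimertinib found 163 of the 200 and made 3 false calls. The test of the difference between the effects found 130 of 200 and made 13 false calls. The shifted genes were drawn from those above a set average level, and no letter effect was simulated, so the real data can behave otherwise.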

Additional observations from a re-analysis of the deposited data

Results flagged for a closer look

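CYP24A1 was at 1022 CPM in 3a, a library left out of the fit, where the vehicle libraries of H1975-OR did not exceed 8.59 CPM on the same 15-library scale.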

How the results depend on the processing

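All 33 called genes kept their direction in every one of the 19 alternatives that tested them, and CYP24A1 was the only gene under the threshold in each, while the other 32 lost the call in at least 1. For both agents against osimertinib, 33 genes became 148 with DESeq2 (all 33 among them), 12 with no replicate block, 9 from the 6 libraries alone with the replicate block, and 2 from the 6 alone with no replicate block, while RLE, TMM without PLCG2, both other filters, 3a kept in, and the fit of 14 libraries gave between 22 and 42. Leaving out 1 library, or both of 1 letter, gave between 4 (without letter b) and 24 (without 5a). For the difference between the effects, 0 genes became 1 with TMM without PLCG2, 2 with no filter, 2 with at least 10 counts in every library, 21 with DESeq2, and 6 in the fit of 14 libraries, and leaving out 1 library gave between 0 and 2. For 1,25(OH)2D3 against vehicle, 48 genes became 187 with DESeq2, 12 with no replicate block, and 30 in the fit of 14 libraries, and leaving out 1 library gave between 7 and 49. The smaller fits hold fewer libraries, and for the other shifts the cause was not tested.

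Of genes that were not called, CAMP had a log2 difference of 0.31 with no replicate block, against -0.11 in the primary fit, and between -2.03 and 0.50 with libraries left out. CCND1 ranged from -0.26 to 0.05002, CALM2 from -1.57 to 0.23, and TPX2 from -3.49 to 0.99 with libraries left out. The median log2 difference of all genes was 0.004 with RLE, 0.006 with TMM without PLCG2, 0.004 with DESeq2, and 0.001 in the primary fit. With 3 libraries per group and between 4378030 and 5104324 counts each, a level of 3 counts corresponds to 0.588 to 0.685 CPM, and differences between levels at or under it were not detectable at this depth.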
